A study of Homo sapiens with 12 samples.

Results

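KG-1a is an immature myeloid leukaemia cell line, and its transcriptome was set against those of MOLM-14, OCI-AML3 and MV4-11, 3 other lines from acute myeloid leukaemia (AML). Libraries were assigned by the labelled cell line alone: 3 of the 12 libraries were from KG-1a and 9 from the other lines, 3 from each. In every line 1 library came from cells given pioglitazone and 1 from cells given darglitazone, each at 10 µM, and 1 from the DMSO control, all for 12 h. Libraries were made from total RNA after removal of ribosomal RNA, with a kit that keeps strand. The 3 differently treated cultures of a line stood as its libraries, with treatment as a term of the model. Each combination of line and treatment had 1 library and no label names a repeat culture, so p-values measure the spread between the treated libraries of a line. KG-1a is 1 line, and what sets it apart from 3 others need not hold for other immature leukaemias.

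KG-1a is a subline of KG-1 that grows as undifferentiated blasts, and KG-1 is known for a fusion of the kinase gene FGFR1. MOLM-14 and MV4-11 carry rearrangements of KMT2A and an internal tandem duplication in the receptor kinase FLT3, and OCI-AML3 carries a mutation in NPM1; all 3 have monocytic features. In normal marrow, CD34 marks stem and progenitor cells and is lost as cells mature into monocytes and granulocytes. Immature leukaemic cells can also carry genes of lymphoid cells, mast cells or red cell precursors beside myeloid ones.

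Levels are given in CPM, counts scaled to a common library size by the TMM method. Values of KG-1a are always in the order DMSO, pioglitazone and darglitazone, and those of the 9 other libraries are the lowest, the median and the highest. A gene was called set apart when it differed in the same direction from each of the 3 other lines, by the largest of 3 p-values of edgeR's quasi-likelihood test, adjusted by the Benjamini-Hochberg method over 15424 genes with a threshold of 0.05. Fold changes are log2 values of KG-1a over the mean of the 3 other lines, with the standard error (SE) of the fit. Where a line had 3 or fewer counts of a gene in all, a fitted fold change depends on the settings of the model, so levels are given instead.

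KG-1a libraries held 8.72, 13.11 and 4.77 M counts, and the other libraries between 1.1 and 64.24 M counts. A level of 3 counts, taken as the lowest distinguishable from 0, was 0.344, 0.229 and 0.629 CPM in KG-1a, and between 0.047 and 2.739 CPM in the other libraries. The KG-1a pioglitazone library stood apart in that 23.537% of its counts fell on 1 rRNA-derived entry, against 6.175% in the OCI-AML3 pioglitazone library and at most 0.542% elsewhere. In KG-1a, genes specific to MV4-11 stood at 0.72% of their level there with DMSO, 0.11% with pioglitazone and 4.1% with darglitazone (median of 6 genes). Genes specific to KG-1a were at 1.85% in the shallowest library, OCI-AML3 with pioglitazone, and at 0.66% or less in the other 8.

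KG-1a was the line least like the others. edgeR set apart 1629 genes as higher in KG-1a (10.6% of those tested) and 1694 as lower (11%), and 1099 and 1120 of these differed at least 2-fold from the nearest line. By the same rule 21.5% of genes were set apart in KG-1a in either direction, against 5.93% in MOLM-14, 7.6% in OCI-AML3 and 5.92% in MV4-11. Against the mean of the other lines, a looser comparison that 1 extreme line can pass, 4143 genes were higher (26.9%) and 4192 lower (27.2%). With the 9 other libraries as 1 group, so that differences between those lines enter the spread, the counts were 1941 and 2137. That model still treats the libraries of a line as independent, so its spread is not one between lines. Across genes, log2 levels of KG-1a libraries correlated with each other at r of 0.94 to 0.951, with those of the other lines at 0.704 to 0.787 over 27 pairs, and those of different other lines among themselves at 0.775 to 0.87. The median fold change over all genes was -0.03.

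**Figure D1:**
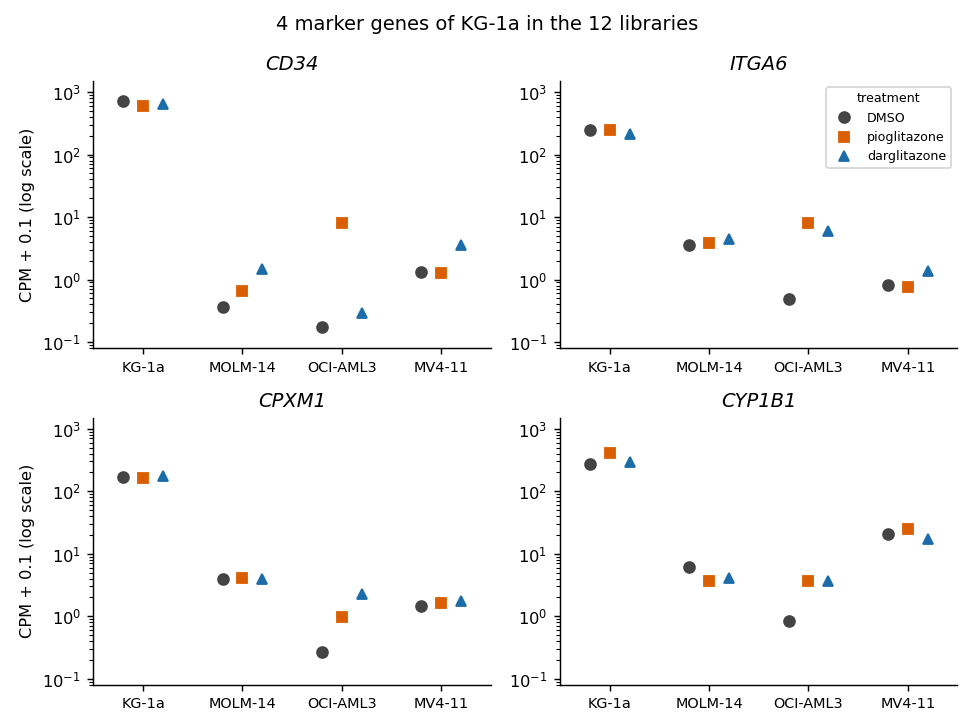
CPM plus 0.1 on a log axis of CD34, ITGA6, CPXM1 and CYP1B1 in each of the 12 libraries, by cell line, with a symbol for each treatment. The 3 KG-1a libraries lie above all 9 others for each gene, at 161 CPM or more against 24.7 CPM or less.

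The genes that mark the line in its label were high in all 3 KG-1a libraries. They were picked with results of these data known, so their levels describe the line and support nothing. CD34, the surface sialomucin of stem and progenitor cells (chromosome 1, 207880972 to 207911402, minus strand, GRCh38), had 715, 599 and 649 CPM in KG-1a, against 0.0747, 1.16 and 7.9 CPM in the other lines, where 7.9 was the OCI-AML3 pioglitazone library. ITGA6, the α6 integrin subunit that binds laminin (chromosome 2, 172427354 to 172506282, plus strand), had 244, 245 and 213 CPM in KG-1a, against 0.389, 3.51 and 7.9 CPM. The groups did not overlap for either gene. CPXM1, a secreted carboxypeptidase-like protein (chromosome 20, 2794069 to 2800637, minus strand), had 166, 161 and 174 CPM, against 0.164, 1.68 and 3.94 CPM. CYP1B1, a cytochrome P450 that oxidises oestrogens and polycyclic hydrocarbons (chromosome 2, 38066973 to 38109902, minus strand), had 277, 404 and 294 CPM in KG-1a. In the other lines CYP1B1 had 0.732, 3.96 and 24.7 CPM, with the 3 MV4-11 libraries highest. In bulk RNA, more cells with a gene and more RNA per cell cannot be told apart.

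Counts of each gene list below are to be read against the shares over all genes tested, 10.6% higher and 11% lower. Stem and progenitor genes were largely higher in KG-1a. Of 30 listed, 20 were tested; 12 were higher and 1 lower, with a median fold change of 4.33, but 5 of those 12 passed the low-count filter through KG-1a alone, which only genes that are high there can do. ERG, an ETS transcription factor of stem cells, had 109, 133 and 121 CPM in KG-1a, against 0, 0.214 and 0.877 CPM in the other lines. GUCY1A1, a subunit of the nitric oxide receptor guanylate cyclase, had 63.9, 61.7 and 53.2 CPM, against 0, 0 and 0.877 CPM, and MYCN, a MYC family factor, had 12.1, 16.1 and 13.0 CPM, against 0, 0 and 0.877 CPM. All 3 KG-1a libraries lay above every other library for these genes. GATA2, a transcription factor that keeps stem cells and drives mast cell and megakaryocyte genes, had 494, 443 and 530 CPM in KG-1a, against 4.94, 10.3 and 86.8 CPM (fold change 5.14, SE 0.3, adjusted p = 0.000553). The lower member was PROCR, the protein C receptor of mouse and human stem cells, with 0.453, 0.201 and 0.209 CPM, against 2.98, 5.23 and 30.5 CPM (-4.56, SE 0.44). KIT, the stem cell factor receptor, was not called, with 4.75, 10.2 and 9.21 CPM in KG-1a, against 0, 0.643 and 6.01 CPM, which overlap.

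The 17 genes of a published leukaemia stem cell score were all tested, and 9 were higher in KG-1a and 2 lower (median 3.48). Among the 9, 1 passed the filter through KG-1a alone. CD34, a label marker picked with these results known, counts among the higher genes here and in the stem and progenitor list. The score itself was not computed, so these counts do not say whether it would be high or low. NYNRIN had 198, 225 and 178 CPM in KG-1a, against 0.0897, 0.428 and 3.51 CPM (9.02, SE 0.33, adjusted p = 1.55e-06). SMIM24, a small membrane protein, had 154, 93.2 and 130 CPM, against 0.0429, 0.321 and 1.75 CPM (8.72, SE 0.26). FAM30A, a long non-coding RNA, had 319, 207 and 266 CPM, against 0, 0 and 3.51 CPM. Each of these stood far above all other libraries in KG-1a. DNMT3B, a de novo DNA methyltransferase, had 187, 172 and 200 CPM, against 10.1, 17.5 and 26.0 CPM (3.48, SE 0.11, adjusted p = 9.35e-09). The lower members were SOCS2 and DPYSL3; SOCS2, a feedback inhibitor of cytokine signalling, had 13.0, 6.75 and 7.12 CPM, against 19.3, 51.7 and 140 CPM (-2.64, SE 0.2). CDK6 was not called (0.24, SE 0.09), and AKR1C3 had 0 counts in KG-1a but also few in MOLM-14 and MV4-11.

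**Figure D2:**
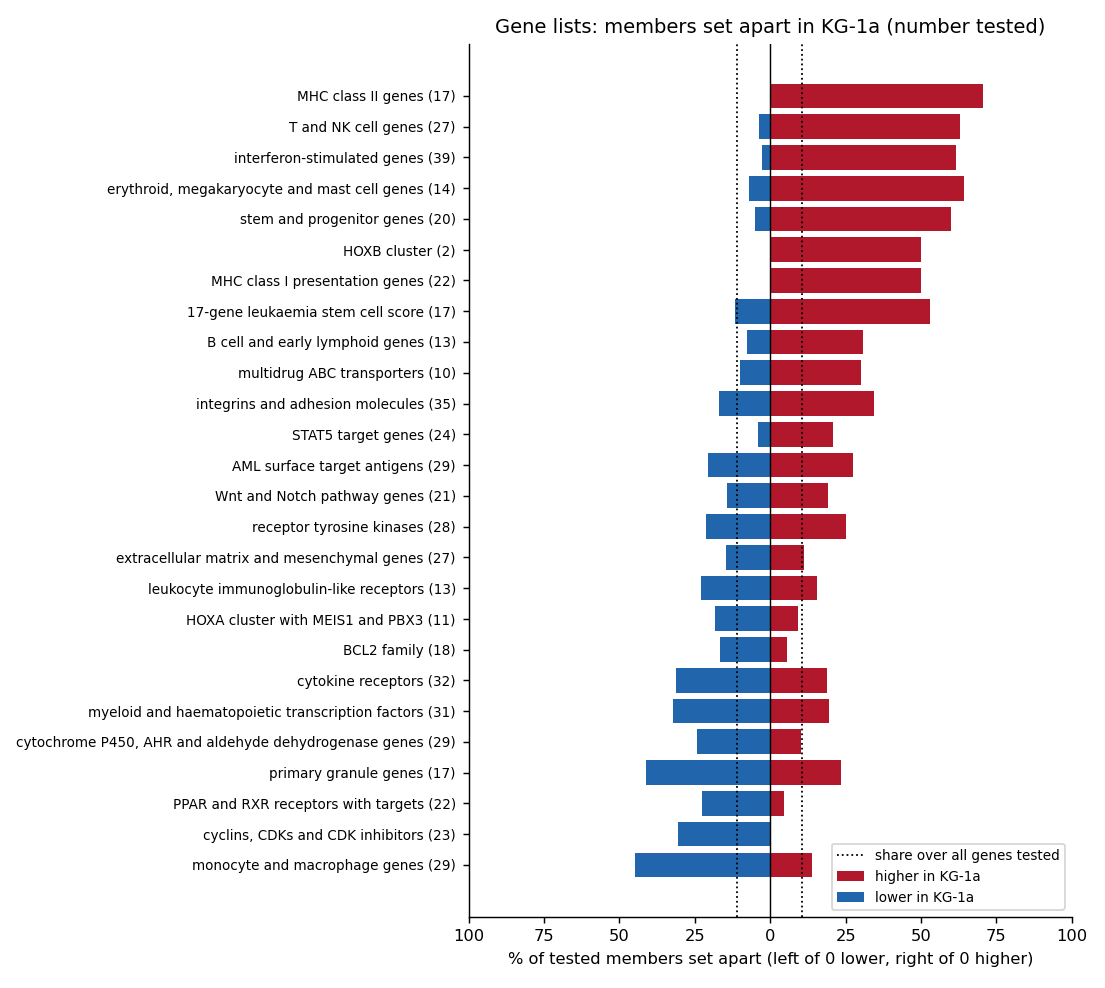
Share of the tested members of 26 gene lists, in percent, set apart as lower (bars left of 0) or higher (bars right of 0) in KG-1a, with the number tested after each name; dotted lines give the shares over all genes, 11% lower and 10.6% higher. MHC class II, T and NK cell, interferon-stimulated, erythroid and stem cell genes extend furthest to the right, and monocyte and primary granule genes furthest to the left.

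T and NK cell genes were present in KG-1a and many were at or near 0 in the other lines. Of 38 listed, 27 were tested, and 17 were higher and 1 lower (median 4.25); 9 of those 17 passed the filter through KG-1a alone. LCK, the kinase that starts T cell receptor signalling, had 139, 141 and 137 CPM in KG-1a, against 0, 0.0747 and 1.75 CPM in the other lines. ZAP70, the kinase that follows it, had 192, 207 and 187 CPM, against 0, 0.214 and 3.51 CPM (9.97, SE 0.51, adjusted p = 9.78e-05). CD3E, a chain of the CD3 complex, had 14.6, 14.4 and 11.5 CPM, against 0, 0 and 0.0857 CPM. CD7, an early T and NK cell antigen that some immature leukaemias carry, had 22.3, 16.8 and 21.8 CPM, against 0, 0 and 1.75 CPM. No other library reached the lowest KG-1a level of any of these 4 genes. RNA for proteins that kill target cells was also found: PRF1, the pore-forming perforin, had 81.7, 76.6 and 61.3 CPM, against 0, 0.257 and 1.24 CPM (7.54, SE 0.28), and the granzyme gene GZMA had 27.4, 15.1 and 9.84 CPM, against 0, 0 and 0.153 CPM.

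The receptor chains themselves were uneven. TRBC2, a constant segment of the T cell receptor β chain, had 14.1, 8.46 and 11.1 CPM in KG-1a, against 0, 0 and 0.129 CPM in the other lines; it is nearly identical to TRBC1, so reads may be split between them. TRAC, the constant segment of the α chain, had 0.679, 0.705 and 0 CPM in KG-1a, against 0, 1.06 and 2.38 CPM, and was not called. CD3G was not called either, with 3.39, 1.11 and 2.51 CPM, against 0, 0.776 and 3.01 CPM. CD96, an adhesion receptor of T and NK cells that also marks leukaemia stem cells, had 202, 281 and 217 CPM in KG-1a, against 0, 0.207 and 5.26 CPM (9.7, SE 0.4, adjusted p = 1.11e-05). NCAM1, the CD56 antigen of NK cells, was the lower member, with 0.453, 0.101 and 0.838 CPM, against 1.28, 35.2 and 71.0 CPM (-5.39, SE 0.39). Without the KG-1a darglitazone library 15 of the 27 were higher, and without both libraries rich in the rRNA-derived entry 14. With all libraries thinned to the depth of the shallowest, 13 were tested and 9 higher.

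Fewer B cell genes stood out: 13 of 26 listed were tested, 4 were higher and 1, the interleukin 7 receptor gene IL7R, lower (median 1.47). Among the 4 higher genes, 2 passed the filter through KG-1a alone. IGHM, the heavy chain constant gene of IgM, had 268, 226 and 241 CPM in KG-1a, against 0, 0.0857 and 4.39 CPM. CD79B, a signalling chain of the B cell receptor, had 47.4, 38.4 and 39.2 CPM, against 0.107, 1.11 and 3.23 CPM (5.59, SE 0.3), and CD79A, its partner, had 18.1, 10.6 and 12.8 CPM, against 0, 0.129 and 1.35 CPM (6.37, SE 0.46). All KG-1a libraries were above all others for these 3. CD22, a B cell lectin, was low at 2.04, 1.61 and 4.82 CPM, against 0, 0.0305 and 0.321 CPM, and its call was lost without the DMSO or the darglitazone library of KG-1a, OCI-AML3 or MV4-11 (adjusted p of up to 0.171). PAX5, the B cell identity factor, was not called, with 2.15, 3.53 and 4.19 CPM, against 0.776, 3.42 and 65.3 CPM, highest in MOLM-14.

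Genes of red cell precursors, megakaryocytes and mast cells formed a further group. Of 30 listed, 14 were tested, with 9 higher and 1 lower (median 5.2, or 4.57 with genes of few counts held at 3 counts); 6 of the 9 passed the filter through KG-1a alone, and 6 were higher without both libraries rich in the rRNA-derived entry. With all libraries thinned to the depth of the shallowest, 6 were tested and 3 higher. CPA3, the mast cell carboxypeptidase, had 37.9, 52.3 and 31.8 CPM in KG-1a, against 0, 0 and 1.75 CPM. HDC, which makes histamine, had 9.84, 13.7 and 16.1 CPM, against 0, 0 and 0.877 CPM. HBD, the δ-globin gene, had 8.6, 5.44 and 3.56 CPM, against 0, 0 and 0.0305 CPM. These 3 were at 0 in most of the other libraries. ITGA2B, the αIIb integrin subunit of platelets, had 304, 234 and 221 CPM in KG-1a, against 0, 1.9 and 9.86 CPM (7.72, SE 0.18, adjusted p = 2.94e-09). Its partner ITGB3 had 0 counts in all 3 KG-1a libraries, against 0, 0.763 and 1.5 CPM; that call was lost by DESeq2 and without any 1 library other than that of OCI-AML3 with pioglitazone (adjusted p of up to 0.117).

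Among genes of granules and of mature monocytes, more were lower than higher in KG-1a, and some were higher. In the primary granule list 17 of 18 were tested, with 7 lower and 4 higher (median -3.22). For 4 of the 7 lower genes KG-1a alone would not have passed the filter, so they entered the test through the other lines. Without the KG-1a darglitazone library 10 were lower. AZU1, the granule protein azurocidin, had 4.53, 0.201 and 13.4 CPM in KG-1a, against 264, 392 and 661 CPM in the other lines (-6.44, SE 0.81, adjusted p = 0.00242). CTSG, the protease cathepsin G, had 6.11, 2.52 and 14.0 CPM, against 173, 364 and 953 CPM (-5.93, SE 0.52), and RNASE2, the eosinophil-derived neurotoxin, 1.36, 0.504 and 3.56 CPM, against 47.5, 96.5 and 168 CPM (-6.08, SE 0.42). For all 3 the highest KG-1a value was in the darglitazone library, where MV4-11-specific genes stood at 4.1%, and the part of those reads in these levels was not tested. RNASE3, the eosinophil cationic protein, had 0, 0 and 0.209 CPM, against 3.51, 8.8 and 13.4 CPM. MPO, myeloperoxidase, had 3.51, 1.41 and 2.09 CPM, against 6.03, 11.0 and 64.8 CPM (-2.82, SE 0.3). ELANE, neutrophil elastase, lay below all others at 2.26, 0.101 and 9.42 CPM, against 11.4, 238 and 566 CPM, but was not called (adjusted p = 0.124). Its highest KG-1a value was also in the darglitazone library. The higher members were CST7, IGFBP2, PRSS57 and NKG7, and NKG7 is also a T and NK cell gene.

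Among monocyte and macrophage genes, 29 of 37 were tested, 13 were lower and 4 higher (median -2.07). For 7 of the 13 lower genes KG-1a alone would not have passed the filter, so they entered the test through the other lines. Without both libraries rich in the rRNA-derived entry 7 were lower. CD68, a lysosomal glycoprotein of macrophages, had 4.64, 3.63 and 5.65 CPM in KG-1a, against 63.5, 75.3 and 124 CPM (-4.18, SE 0.15, adjusted p = 1.82e-09). S100A8, a calcium-binding protein of monocytes, had 0.339, 0.403 and 0 CPM, against 5.49, 7.11 and 12.1 CPM (-4.73, SE 0.48), and CX3CR1, the fractalkine receptor, 0.339, 0.101 and 0.628 CPM, against 3.51, 7.17 and 12.6 CPM (-4.73, SE 0.58). KG-1a libraries lay below all others for each. Some genes ran the other way: CD86, a costimulatory ligand, had 26.7, 25.6 and 17.8 CPM, against 0.464, 0.933 and 2.63 CPM (4.55, SE 0.32), and ITGAM, the CD11b integrin subunit, had 148, 77.8 and 113 CPM, against 1.03, 3.47 and 23 CPM (4.69, SE 0.24). CD14, the lipopolysaccharide coreceptor, had 0 counts in KG-1a, against 0, 0.471 and 6.65 CPM, highest in OCI-AML3 and near 0 in MV4-11, and was not called.

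Of 18 leukocyte immunoglobulin-like and related receptors, 13 were tested. Of these, 3 were lower and 2 higher (median 0.03, or -0.56 with genes of few counts held at 3 counts). For 2 of the 3 lower genes KG-1a alone would not have passed the filter. LAIR1, an inhibitory collagen receptor, had 21.2, 22.4 and 33.5 CPM in KG-1a, against 128, 258 and 301 CPM (-3.09, SE 0.14). LILRB4, an inhibitory receptor of monocytic leukaemia, had 0.905, 0.302 and 7.54 CPM, against 26.0, 38.5 and 258 CPM (-4.84, SE 0.66, adjusted p = 0.00907, but 0.0562 without the KG-1a DMSO library). For LILRB4 the highest KG-1a value was in the darglitazone library, where MV4-11-specific genes stood at 4.1%. The part of those reads in its level was not tested. LILRA2 was higher, with 102, 66.1 and 70.1 CPM, against 17.5, 27.5 and 53.2 CPM (1.27, SE 0.17). PILRA had 0 counts in KG-1a and at most 2.35 CPM elsewhere, with an adjusted p of 0.05 without the KG-1a DMSO library. These receptors share sequence, so their counts may be split.

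Transcription factors of blood cells were divided. Of 32 listed, 31 were tested, 10 lower and 6 higher (median -0.13). For 4 of the 10 lower genes KG-1a alone would not have passed the filter. GFI1B, a repressor of red cell and megakaryocyte precursors, had 87.8, 86.1 and 95.9 CPM in KG-1a, against 0.104, 0.428 and 0.877 CPM (7.87, SE 0.24, adjusted p = 4.85e-09). IKZF2, the Ikaros family factor Helios, had 276, 275 and 237 CPM, against 0, 2.56 and 5.26 CPM (8.41, SE 0.54). Both stood above all other libraries. CEBPA, a driver of granulocyte and monocyte fate, had 84.1, 38.7 and 76.6 CPM, against 145, 336 and 511 CPM (-2.43, SE 0.2), and KLF4, a monocyte factor, 0.113, 0.201 and 0 CPM, against 2.84, 6.52 and 7.71 CPM. RUNX1, a factor that all blood lineages use, was not called, with 80.8, 71.2 and 74.7 CPM in KG-1a, against 47.9, 67.3 and 94.9 CPM (0.11, SE 0.1), which overlap.

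The HOXA genes, which KMT2A fusions and mutated NPM1 are known to keep on, were called about as often as genes at large. In the HOXA list with its cofactors, 11 of 13 were tested, 1 was higher, 2 were lower and 8 neither (median -1.5, or -1.95 with genes of few counts held at 3 counts). HOXA9 was higher in KG-1a, at 69.9, 66.6 and 52.6 CPM, against 29.9, 35.1 and 43.9 CPM (0.86, SE 0.13, adjusted p = 0.0026). HOXA11 had 0.226, 0 and 0.209 CPM, against 3.88, 14.5 and 23.9 CPM (adjusted p = 0.0789 with thinned counts), and PBX3, a HOX cofactor, 26.3, 33.7 and 19.7 CPM, against 41.9, 58.7 and 108 CPM (-1.28, SE 0.16). MEIS1, another cofactor, had 47.5, 39.8 and 50.5 CPM, against 27.6, 50.3 and 68.1 CPM (-0.03, SE 0.14). In the HOXB cluster 2 of 10 were tested (median 4.27, or 3.44 with genes of few counts held at 3 counts), with 1 higher and 0 lower. The 1 higher gene passed the low-count filter through KG-1a alone, which only genes that are high there can do. HOXB2 had 11.4, 16.5 and 14.9 CPM in KG-1a, against 0, 0 and 0.061 CPM.

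Many genes that present antigen to T cells and many that interferon induces were higher in KG-1a, most clearly those of MHC class II. MHC class II molecules show peptides to helper T cells, and their genes share a promoter element called the Y box and need the coactivator CIITA. MHC class I molecules show peptides to killer T cells. Interferon-stimulated genes hold sites for STAT and IRF factors. The promoters below are shown because they belong to members of these 3 lists that were called higher, and they carry the letters searched for. Each runs from 250 bases before to 50 after the start of the gene, from RefSeq on GRCh38.p14, read 5′ to 3′ on the strand of the gene. Capitals mark matches on either strand to CTGATTGG, the Y box, or to GAAANNGAA, a core that IRF factors bind.
HLA-DRB1 (chr6:32589799-32590098, minus strand): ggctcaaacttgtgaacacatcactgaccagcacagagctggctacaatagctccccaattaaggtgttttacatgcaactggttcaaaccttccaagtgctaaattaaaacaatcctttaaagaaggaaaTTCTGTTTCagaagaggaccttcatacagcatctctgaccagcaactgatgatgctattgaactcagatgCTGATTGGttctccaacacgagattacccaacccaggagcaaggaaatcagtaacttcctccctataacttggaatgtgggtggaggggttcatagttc
B2M (chr15:44711267-44711566, plus strand): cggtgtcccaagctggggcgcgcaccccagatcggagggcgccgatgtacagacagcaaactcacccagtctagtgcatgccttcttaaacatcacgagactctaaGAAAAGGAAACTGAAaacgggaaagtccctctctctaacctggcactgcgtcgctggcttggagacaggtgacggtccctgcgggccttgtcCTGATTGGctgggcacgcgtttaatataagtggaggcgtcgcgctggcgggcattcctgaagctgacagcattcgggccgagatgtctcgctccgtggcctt
TAP1 (chr6:32853655-32853954, minus strand): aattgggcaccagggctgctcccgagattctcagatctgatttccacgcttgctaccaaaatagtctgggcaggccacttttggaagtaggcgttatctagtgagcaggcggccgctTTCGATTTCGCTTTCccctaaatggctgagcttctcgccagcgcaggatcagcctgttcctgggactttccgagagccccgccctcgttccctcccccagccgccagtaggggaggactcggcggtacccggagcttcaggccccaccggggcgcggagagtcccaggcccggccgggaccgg
ISG15 (chr1:1013247-1013546, plus strand): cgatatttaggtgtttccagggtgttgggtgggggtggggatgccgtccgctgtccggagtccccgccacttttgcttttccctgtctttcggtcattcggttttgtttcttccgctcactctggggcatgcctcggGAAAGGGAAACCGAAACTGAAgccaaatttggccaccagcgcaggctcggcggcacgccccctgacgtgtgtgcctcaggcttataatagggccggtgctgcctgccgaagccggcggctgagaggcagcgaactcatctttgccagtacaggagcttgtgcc
GBP1 (chr1:89065159-89065458, minus strand): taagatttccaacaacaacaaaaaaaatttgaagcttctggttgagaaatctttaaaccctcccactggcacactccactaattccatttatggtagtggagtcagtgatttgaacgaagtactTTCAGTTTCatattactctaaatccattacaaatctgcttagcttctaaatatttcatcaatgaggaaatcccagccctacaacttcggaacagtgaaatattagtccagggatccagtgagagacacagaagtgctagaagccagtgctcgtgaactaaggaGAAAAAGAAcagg

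In HLA-DRB1 the Y box begins at position -49 and the IRF core at -119, counted from the start of the gene, and in B2M the Y box begins at -52 and overlapping IRF cores at -144 and -138. ISG15 has overlapping cores at -113, -107 and -101. The Y box was found in at least 1 promoter of 7 of 16 class II genes with an entry (43.75%), of 5 of 18 class I genes (27.78%) and of 0 of 31 interferon-stimulated genes, against 4.75% of 27305 genes with an entry. The IRF core was found for 23 of 31 interferon-stimulated genes (74.19%), 11 of 18 class I genes (61.11%) and 6 of 16 class II genes (37.5%), against 9.86% of all. These shares count all list members with an entry, called or not. Class II genes called higher without a Y box match include HLA-DPA1, HLA-DPB1, HLA-DMB and HLA-DOA. RFX5, which was not called, has one. Another promoter entry of TAP1 had neither match. A match is a description of the letters and not a site of binding.

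Of 19 class II genes and their regulators, 17 were tested, 12 were higher in KG-1a and 0 lower, with a median fold change of 5.52. The count was also 12 without the KG-1a darglitazone library and without both libraries rich in the rRNA-derived entry. CIITA had 98.1, 81.5 and 107 CPM in KG-1a, against 1.12, 4.14 and 11.7 CPM in the other lines (4.62, SE 0.15, adjusted p = 3.78e-08). HLA-DRA, the α chain of HLA-DR, had 715, 616 and 618 CPM, against 0.852, 5.96 and 32.7 CPM (6.74, SE 0.49, adjusted p = 0.0028), and HLA-DRB1, a β chain, 493, 332 and 395 CPM, against 0.855, 2.35 and 22.4 CPM (6.67, SE 0.31). HLA-DPA1 had 304, 261 and 289 CPM, against 1.55, 2.02 and 5.26 CPM (6.99, SE 0.18), and HLA-DPB1 192, 148 and 176 CPM, against 0, 0.662 and 3.51 CPM (8.64, SE 0.5). KG-1a lay above all other libraries for these genes, and for HLA-DRA, HLA-DRB1 and CIITA the 3 MV4-11 libraries were the highest of the others.

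Class II genes that load the peptide followed. HLA-DMB, a chain of the editor of class II peptides, had 97.0, 68.5 and 79.4 CPM in KG-1a, against 0.239, 0.549 and 2.63 CPM (7.37, SE 0.28), and HLA-DOA, a chain of its modulator, 26.6, 16.4 and 18.0 CPM, against 0, 0.0994 and 0.877 CPM (6.87, SE 0.57). CD74, the invariant chain, was high in every line but highest in KG-1a, at 1420, 1060 and 1200 CPM, against 128, 193 and 482 CPM (2.4, SE 0.09). The DNA-binding factors that recruit CIITA were not called: RFX5 had 154, 144 and 156 CPM in KG-1a, against 63.2, 118 and 151 CPM (0.39, SE 0.11), and RFXANK had a fold change of -0.55 (SE 0.12). HLA genes resemble each other and differ between people, so reads of a line can be lost or shared between them when mapped to 1 genome.

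**Figure D3:**
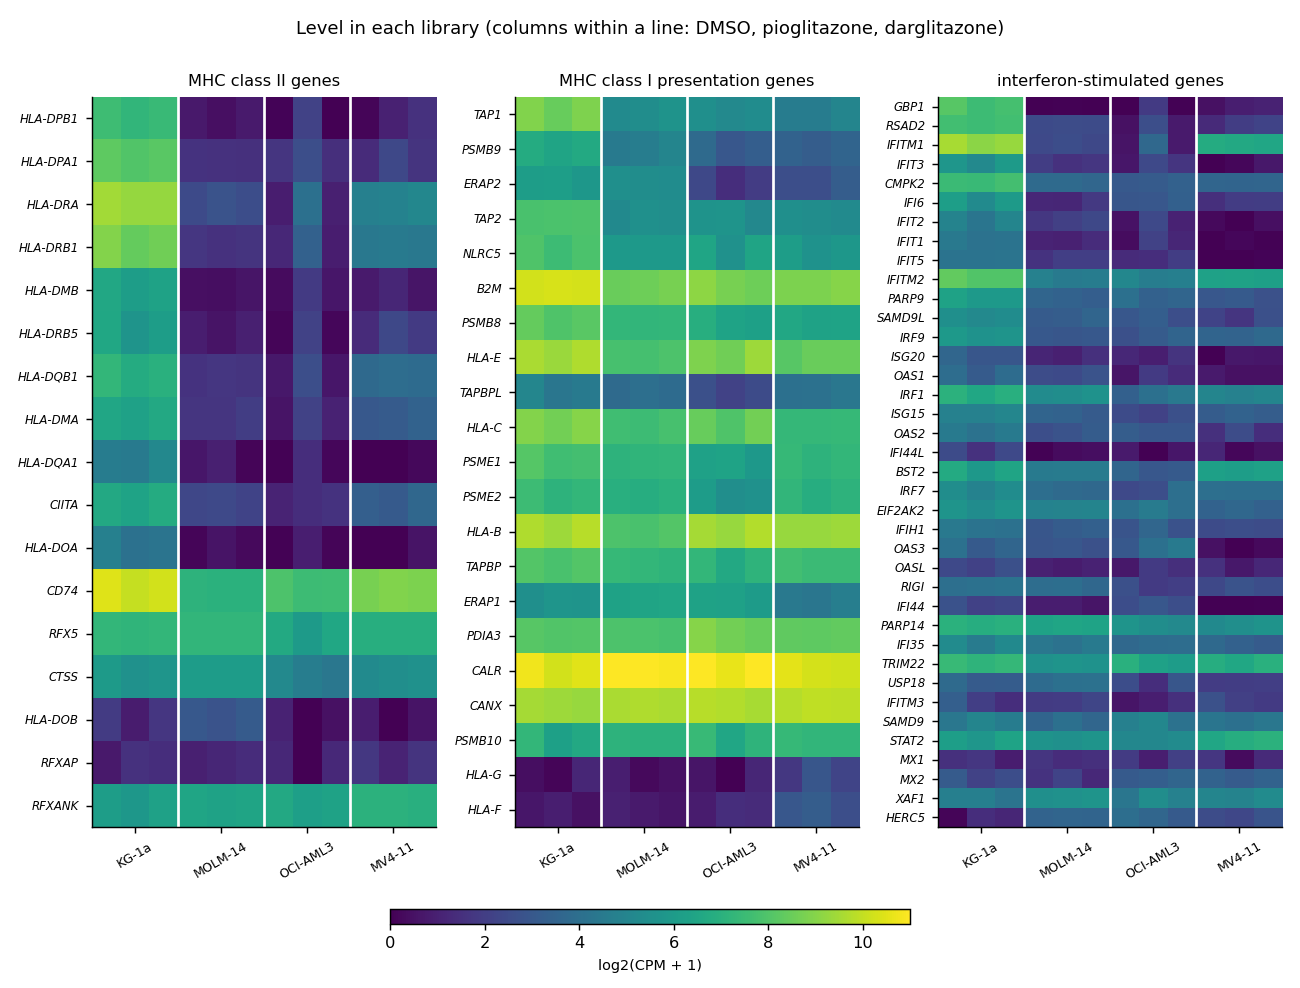
Level as log2(CPM + 1) of tested members of the MHC class II, MHC class I and interferon lists in the 12 libraries (KG-1a at the left of each panel, then MOLM-14, OCI-AML3 and MV4-11; within a line DMSO, pioglitazone, darglitazone), with genes sorted by the difference between KG-1a and the others. The KG-1a columns are brighter for most rows, with TAP1 at 350 CPM or more against 49.9 CPM or less.

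All 22 class I presentation genes were tested, and 11 were higher in KG-1a, 0 lower and 11 neither (median 0.85). TAP1, a subunit of the peptide transporter, had 478, 350 and 474 CPM, against 23.3, 37.1 and 49.9 CPM (3.61, SE 0.11, adjusted p = 2.94e-09), and its partner TAP2 had 230, 237 and 241 CPM, against 34.5, 42.9 and 50.9 CPM (2.5, SE 0.11). PSMB9, a subunit of the immunoproteasome, had 107, 85.1 and 101 CPM, against 7.02, 10.6 and 31.3 CPM (2.84, SE 0.14). NLRC5, the class I counterpart of CIITA, had 248, 183 and 233 CPM, against 46.5, 59.8 and 88.4 CPM (1.81, SE 0.11). No other library reached the lowest KG-1a level of these genes. B2M, the light chain of class I, had 1230, 1300 and 1240 CPM, against 361, 433 and 553 CPM (1.52, SE 0.1). HLA-B, a heavy chain, was not called, with 821, 673 and 896 CPM, against 230, 632 and 838 CPM (0.7, SE 0.08), which overlap.

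Of 40 interferon-stimulated genes, 39 were tested, 24 were higher in KG-1a and 1 lower (median 2.09); 18 were higher without the KG-1a darglitazone library. GBP1, a guanylate-binding protein that interferon γ induces, had 281, 185 and 216 CPM, against 0, 0.0475 and 2.63 CPM. RSAD2, the antiviral protein viperin, had 200, 183 and 201 CPM, against 0.389, 3.63 and 5.26 CPM (6.58, SE 0.26). IFIT3, an adaptor of the antiviral IFIT complex, had 54.2, 35.6 and 63.2 CPM, against 0, 1.93 and 4.39 CPM (5.64, SE 0.39). In all 3 the KG-1a libraries were well above the rest. ISG15, a ubiquitin-like modifier, had 27.3, 27.4 and 32.0 CPM, against 3.51, 8.08 and 10.8 CPM (1.95, SE 0.17), and IRF9, the DNA-binding partner of STAT2, 59.9, 47.5 and 50.9 CPM, against 5.35, 7.9 and 12.5 CPM (2.67, SE 0.16).

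Not every classic member followed. MX1, an antiviral GTPase, had 1.92, 2.32 and 0.838 CPM in KG-1a, against 0.259, 1.92 and 3.23 CPM, which overlap. STAT2 had 71.3, 54.6 and 82.1 CPM, against 32.9, 48.8 and 133 CPM (0.26, SE 0.12), with MV4-11 highest. HERC5, the ligase that attaches ISG15, was lower, with 0.113, 1.71 and 1.26 CPM, against 4.01, 10.3 and 14.8 CPM (-3.1, SE 0.51, adjusted p = 0.00619).

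CDKN1A, the p21 inhibitor of the cell cycle, had 1.47, 0.403 and 6.49 CPM in KG-1a, against 48.5, 149 and 674 CPM (-6.19, SE 0.71, adjusted p = 0.00287). PHLDA3, an inhibitor of AKT, had 0.339, 0.101 and 2.09 CPM, against 15.1, 22.6 and 101 CPM (-5.63, SE 0.42), and TNFRSF10B, the death receptor DR5, 4.75, 3.83 and 3.56 CPM, against 90.6, 124 and 208 CPM (-4.96, SE 0.21, adjusted p = 2.94e-09). The groups did not overlap. For CDKN1A and PHLDA3 the highest KG-1a value was in the darglitazone library, where MV4-11-specific genes stood at 4.1%. The part of those reads in these levels was not tested. MDM2, a ubiquitin ligase, had 54.5, 60.4 and 42.7 CPM, against 91.3, 156 and 411 CPM (-1.73, SE 0.14). ZMAT3, an RNA-binding protein, was higher, at 101, 91.2 and 92.1 CPM, against 4.66, 11.4 and 25.5 CPM (3.0, SE 0.13).

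Genes of the list of cyclins, cyclin-dependent kinases and inhibitors of these kinases were lower or not called: 23 of 24 were tested, 7 lower and 0 higher (median -0.63). The list mixes drivers and inhibitors of the cell cycle, so its count has no single meaning for growth. CCNA2, cyclin A2, had 28.5, 37.1 and 24.1 CPM in KG-1a, against 55.7, 88.2 and 169 CPM (-1.54, SE 0.22). CDK4 had 110, 87.6 and 93.4 CPM, against 135, 198 and 276 CPM (-1.12, SE 0.12), and RBL1, a pocket protein, 19.9, 23.8 and 24.9 CPM, against 41.9, 54.2 and 70.0 CPM (-1.28, SE 0.13). MKI67, a marker of dividing cells outside the list, had 88.5, 90.2 and 80.6 CPM, against 140, 236 and 351 CPM (-1.43, SE 0.14, adjusted p = 0.000144). KG-1a lay below all other libraries for all 4.

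In the BCL2 family, which controls apoptosis, 18 of 20 were tested, 3 lower and 1 higher (median -0.47), against 11% and 10.6% over all genes. BBC3, the killer protein PUMA, had 0.453, 1.11 and 1.88 CPM in KG-1a, against 7.88, 10.9 and 46.0 CPM (-3.81, SE 0.3). BCL2L1, the survival protein BCL-XL, had 68.2, 54.6 and 47.7 CPM, against 18.9, 29 and 37.8 CPM (1.01, SE 0.14), and MCL1, another, 77.8, 88.2 and 86.7 CPM, against 107, 146 and 201 CPM (-0.77, SE 0.14). The call of BCL2L1 was lost without KG-1a DMSO or pioglitazone or MV4-11 DMSO or darglitazone (adjusted p of up to 0.146). That of MCL1 was lost without any of the KG-1a libraries or MV4-11 DMSO or pioglitazone (up to 0.218), and that of BCL2L11 (-2.38, SE 0.34) without KG-1a pioglitazone or MV4-11 DMSO (up to 0.145). BCL2, the target of venetoclax, was not called, with 110, 114 and 94.4 CPM in KG-1a, against 83.7, 158 and 228 CPM.

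Receptor tyrosine kinases were called in both directions. Of 40 listed, 28 were tested, 7 higher and 6 lower (median 0.71). Of the 7, 4 passed the filter through KG-1a alone, and for 4 of the 6 KG-1a alone would not have passed it. With thinned counts 15 were tested, 2 higher and 4 lower; without the KG-1a darglitazone library 4 were higher and 6 lower. FLT3, the growth factor receptor of early myeloid cells, had 4.07, 0.604 and 16.8 CPM in KG-1a, against 114, 296 and 521 CPM in the other lines (-5.45, SE 0.83, adjusted p = 0.00954). The value of 16.8 CPM was in the library where MV4-11-specific genes stood at 4.1%, and without the KG-1a DMSO library the adjusted p of FLT3 was 0.0638. FGFR1, the kinase of the fusion known from KG-1, had 159, 164 and 174 CPM in KG-1a and 148, 144 and 150 CPM in MOLM-14. In OCI-AML3 it had 7.49, 17.5 and 24.2 CPM and in MV4-11 15.1, 8.93 and 12.4 CPM, so FGFR1 set KG-1a apart from those 2 lines (3.48 and 3.77) but not from MOLM-14 (0.16). TIE1, an endothelial and stem cell receptor, had 68.6, 59.7 and 55.7 CPM in KG-1a, against 0, 0.207 and 0.713 CPM (7.68, SE 0.27). ROR2, a WNT5A receptor, had 18.9, 19.5 and 20.3 CPM, against 0, 0.122 and 1.51 CPM, and EPHA2, an ephrin receptor, 4.64, 2.01 and 4.82 CPM, against 0, 0.0331 and 0.214 CPM.

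Of 36 cytokine receptors, 32 were tested, 10 lower and 6 higher (median -0.48), and 2 of the 6 passed the filter through KG-1a alone. For 3 of the 10 lower genes KG-1a alone would not have passed it. Without both libraries rich in the rRNA-derived entry 3 were higher. IL13RA1, a chain of the interleukin 4 and 13 receptors, had 0.226, 0 and 1.05 CPM in KG-1a, against 15.3, 25 and 32.5 CPM (-6.13, SE 0.5). IL10RA, the ligand-binding chain for interleukin 10, had 0.339, 0 and 0.628 CPM, against 4.24, 8.21 and 20 CPM (-5.11, SE 0.54). KG-1a was below all others for both. IL2RG, the common γ chain, was higher, at 161, 177 and 163 CPM, against 1.32, 3.66 and 23.4 CPM (5.25, SE 0.14), and CSF2RB, the chain that GM-CSF and interleukin 3 share, had 222, 176 and 225 CPM, against 13.1, 61.3 and 80.3 CPM (2.35, SE 0.12). IL1RL1, the interleukin 33 receptor of mast cells, had 3.62, 2.32 and 4.4 CPM, against 0, 0 and 0.129 CPM, and TNFRSF4, the costimulatory receptor OX40, 4.41, 5.14 and 5.03 CPM, against 0, 0 and 0.428 CPM, with an adjusted p of 0.0535 without the KG-1a pioglitazone library.

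All 24 listed targets of STAT5, the factor downstream of such receptors, were tested, 5 higher and 1 lower (median 0.0). PIM1, a survival kinase, had 406, 349 and 392 CPM in KG-1a, against 3.14, 30 and 63.7 CPM (4.19, SE 0.18, adjusted p = 7.99e-06). OSM, the cytokine oncostatin M, had 53.7, 30.6 and 47.3 CPM, against 0.418, 7.51 and 13.6 CPM (3.46, SE 0.31), and LTB, lymphotoxin β, 93.2, 72.1 and 77.1 CPM, against 0.824, 2.45 and 5.99 CPM (5.17, SE 0.24). SOCS2, described above, was the lower member. The other 18 were not called.

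Among surface antigens considered as targets in AML, 29 of 30 were tested, 8 higher and 6 lower (median 0.56). Of the 8, 2 passed the filter through KG-1a alone, and for 4 of the 6 KG-1a alone would not have passed it. The higher ones include CD34, CD96, CD7 and TNFRSF4, and the lower ones FLT3 and LILRB4, all given above. CD33, the target of gemtuzumab, was not called, with 76.5, 55.3 and 59.7 CPM in KG-1a, against 34.2, 79.0 and 170 CPM (-0.35, SE 0.16). CD38, which normal progenitors gain as they mature, was not called either, with 17, 4.94 and 21.1 CPM, against 0.647, 23.4 and 72.8 CPM; it was lowest in MV4-11 and highest in OCI-AML3, so KG-1a fell between lines. IL1RAP, a coreceptor of interleukin 1, was lower, at 13.5, 10.4 and 12.1 CPM, against 35.1, 46.4 and 119 CPM (-2.22, SE 0.17).

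Integrins and adhesion molecules had 35 of 43 tested, 12 higher and 6 lower (median 0.83), with 3 lower both without the KG-1a darglitazone library and without the pair rich in the rRNA-derived entry. Among the 12 higher genes, 2 passed the filter through KG-1a alone, and for 4 of the 6 lower genes KG-1a alone would not have passed it. JAM3, a junctional adhesion molecule, had 49.4, 56.2 and 47.1 CPM, against 0, 0 and 0.877 CPM. ITGA4, the α4 subunit that binds VCAM-1, had 333, 418 and 343 CPM, against 82.8, 135 and 150 CPM (1.62, SE 0.1). KG-1a was above all other libraries for both. CXCR4, which holds cells in the marrow, was lower, at 11.8, 6.14 and 17.4 CPM, against 62.9, 89.5 and 145 CPM (-3.06, SE 0.23, adjusted p = 1.6e-06). CD9, a tetraspanin, had 0 counts in KG-1a and at most 1.82 CPM elsewhere, and its call was lost by DESeq2 (adjusted p = 0.0558), by limma-voom (0.077) and without any 1 library other than that of OCI-AML3 with pioglitazone (adjusted p of up to 0.155).

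Matrix genes had 27 of 40 tested, 4 lower and 3 higher (median -1.09, or -0.64 with genes of few counts held at 3 counts). These counts are near the shares over all genes, 11% lower and 10.6% higher. COL5A1, a fibrillar collagen, had 138, 155 and 129 CPM in KG-1a, against 0, 0.388 and 6.14 CPM (8.37, SE 0.6). TIMP2, a protease inhibitor, had 0.679, 0.201 and 0.419 CPM, against 14.4, 19.7 and 28.7 CPM (-5.52, SE 0.33), and MMP14, a membrane protease, 2.49, 2.92 and 9.42 CPM, against 107, 194 and 524 CPM (-5.51, SE 0.6). The MMP14 value of 9.42 CPM was in the KG-1a darglitazone library, where MV4-11-specific genes stood at 4.1%. The part of those reads was not tested. Wnt and Notch genes had 21 of 35 tested, 4 higher and 3 lower (median 0.62), against 10.6% and 11% over all genes. NOTCH1 had 271, 313 and 297 CPM, against 85.1, 121 and 185 CPM (1.17, SE 0.16), with an adjusted p of 0.0575 without the KG-1a pioglitazone library. FZD3, a Wnt receptor, had 0.113, 0.101 and 1.68 CPM, against 8.12, 17.6 and 47.4 CPM (-5.36, SE 0.51).

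Drug transporters are of interest because KG-1a is known as a line that effluxes dyes. Of 14 listed ABC and related transporters, 10 were tested, 3 higher and 1 lower (median 0.15), and 1 of the 3 passed the filter through KG-1a alone. Without the KG-1a darglitazone library 1 was higher. The call of ABCA2, a higher member, was lost without the treatment term (adjusted p = 0.057). Leaving out 1 library at a time gave ABCA2 fold changes of 1.05 to 1.47, with adjusted p of up to 0.319. ABCB1, P-glycoprotein, had 2.6, 1.51 and 6.07 CPM in KG-1a, against 0, 0 and 0.104 CPM; its adjusted p of 0.00367 became 0.0806 without the KG-1a darglitazone library and 0.0531 without the MV4-11 darglitazone library. ABCC1, the MRP1 pump, had 206, 143 and 175 CPM, against 26.2, 40.1 and 60.5 CPM (2.13, SE 0.13, adjusted p = 4.86e-06). MVP, the major vault protein, was lower, at 6.0, 6.35 and 13.8 CPM, against 14.5, 40.5 and 61.7 CPM (-2.14, SE 0.21). ABCG2, the side population transporter, had 0 counts in KG-1a and at most 0.285 CPM elsewhere, and was not tested.

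In the list of cytochrome P450, AHR and aldehyde dehydrogenase genes, 29 of 36 were tested, 7 lower and 3 higher (median -1.07). The shares over all genes were 11% lower and 10.6% higher, and 2 of the 3 higher genes passed the filter through KG-1a alone. For 3 of the 7 lower genes KG-1a alone would not have passed it. Beside CYP1B1, the higher ones were ALDH1A1, which makes retinoic acid and marks stem cells in the ALDEFLUOR assay, with 11.8, 14.3 and 12.4 CPM in KG-1a, against 0, 0 and 0.877 CPM, and CYP26A1, which degrades retinoic acid, with 4.64, 2.22 and 3.35 CPM, against 0, 0 and 0.0299 CPM. Without the KG-1a DMSO library the adjusted p of CYP26A1 was 0.05. CYP1B1 is a target of the receptor AHR. AHR itself had 68.7, 86.7 and 56.3 CPM, against 18.4, 48.1 and 97.8 CPM, which overlap, and its repressor AHRR, also a target, was lower, at 19.2, 20.3 and 20.5 CPM, against 49.3, 102 and 186 CPM (-2.34, SE 0.19). CYP1A1 was low at 1.13, 3.93 and 1.26 CPM, against 0, 0 and 0.732 CPM; it lay above all other libraries in KG-1a but was not called (adjusted p = 0.242). CYP2S1 had 0 counts in KG-1a, which was at least 9.54-fold lower than the nearest line with KG-1a held at 3 counts, and AKR1C2 had 0.113, 0 and 0.209 CPM, against 0.641, 2.53 and 29.8 CPM.

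Both drugs activate PPARγ, and PPARG itself was barely detected, with 0, 0.504 and 0 CPM in KG-1a, against 0, 0.427 and 1.36 CPM, so it was not tested. Of 29 PPAR and RXR genes and targets, 22 were tested, 5 lower and 1 higher (median -0.15). The 1 higher gene passed the filter through KG-1a alone, and for 2 of the 5 lower genes KG-1a alone would not have passed it. PPARD, the PPARδ gene, had 5.2, 3.42 and 1.05 CPM in KG-1a, against 9.64, 16.8 and 20.4 CPM (-2.21, SE 0.39, adjusted p = 0.00439, but 0.341 with thinned counts). ACSL1, an acyl-CoA synthetase, had 13.0, 12.7 and 13.8 CPM, against 41.3, 52.6 and 78.7 CPM (-2.12, SE 0.13), and CD36, a fatty acid transporter of monocytes, 0.226, 0 and 0.838 CPM, against 1.5, 2.91 and 23.5 CPM (-4.07, SE 0.64, adjusted p = 0.00676, but 0.77 with thinned counts). ANGPTL4, an inhibitor of lipoprotein lipase, had 12.9, 5.64 and 5.65 CPM, against 0, 0 and 0.0857 CPM.

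The genes furthest from the nearest line by fitted fold change, of any function, were named by size, and a few are members of the lists above. For most of them, in both directions, a line had 3 or fewer counts, so their order depends on the settings of the model. DESeq2 did not call CYTL1, ENPP4, FEV, GLYATL2, SLC16A14, SLC8A3 or RFLNA. The 15 highest in KG-1a included RHAG, a red cell membrane protein, with 119, 125 and 149 CPM, against 0, 0.095 and 0.877 CPM, and GFRA1, a receptor for GDNF, with 94.9, 117 and 88.8 CPM, against 0, 0.0149 and 0.877 CPM. CYTL1, a secreted protein first found in CD34+ cells, had 7.02, 8.66 and 7.12 CPM and 0 counts in all 9 other libraries, at least 129-fold higher than the nearest line held at 3 counts per line; ENPP4 and SLC16A14 were at least 134-fold and 117-fold higher. ITM2A, a membrane protein of T cells and precursors, had 681, 888 and 639 CPM, against 0, 0.214 and 10.5 CPM (10.85, SE 0.87). The rest were FEV, GLYATL2, SLC8A3, GUCY1A1, CAVIN2, GALNT14, JAM3, RFLNA and CD96. In all, 26 of the genes called higher had 0 counts in the 9 other libraries, and 338 passed the filter through KG-1a alone.

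At the other end, TEAD4, a factor of the Hippo pathway, had 0 counts in KG-1a, against 1.42, 24.5 and 40.4 CPM, at least 19.7-fold lower than the nearest line. MT1E, a metallothionein, had 0.113, 0 and 0.419 CPM, against 22.5, 31.2 and 44.3 CPM, and TBX3, a T-box factor, 0, 0 and 0.209 CPM, against 5.14, 9.33 and 19.0 CPM. NAXD, which repairs damaged NADH, had 0.226, 0 and 0.628 CPM, against 23, 29 and 46.1 CPM (-7.15, SE 0.38, adjusted p = 2.3e-08), and ALDH1L2, a mitochondrial folate enzyme, 0.226, 0 and 0.628 CPM, against 17, 39.1 and 79.0 CPM (-7.61, SE 0.52). NAXD and ALDH1L2 are thus near 0 in KG-1a where all other libraries hold at least 17 CPM. The remaining ones were TVP23C-CDRT4, a read-through entry, and KLHL13, EIF5A2, RNASE3, PSRC1, ME1, CD1D, PBK, ADPRH and GAS2L3. Of genes called lower, 79 had 0 counts in KG-1a, and for 627 KG-1a alone would not have passed the filter.

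Genes set apart in KG-1a were unevenly spread over the chromosomes. On chromosome 4, 134 of 510 tested genes were lower (26.3%) and 33 higher (6.5%), against 11% and 10.6% over all genes. Chromosomes 9 (19.3%), 5 (18.3%), 12 (16.3%), 8 (15.7%), 7 (14.9%) and 17 (14.5%) followed, while on chromosome 13 it was 4.9%. The median fold change was -0.74 on chromosome 4 and -0.39 on chromosome 5, and between -0.28 and 0.22 on the other autosomes and X.

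**Figure D4:**
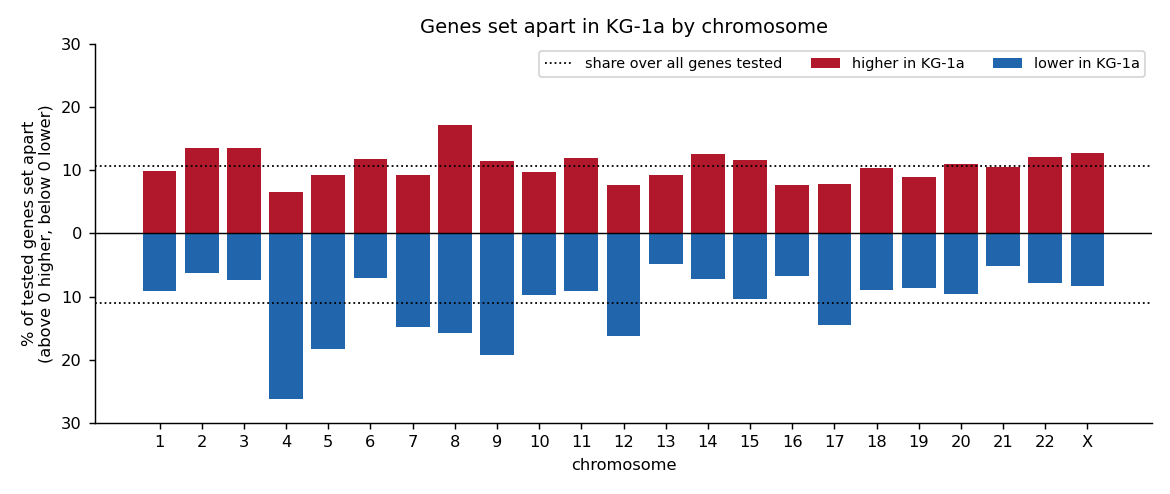
Percent of tested genes on each chromosome that were set apart in KG-1a, higher above 0 and lower below 0, with dotted lines at the shares over all genes, 10.6% and 11%. Chromosome 4 has the longest bar of lower genes, 26.3%, and chromosome 8 the longest of higher genes, 17.1%.

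Within some chromosomes the lower genes lay in runs, counted in windows of 20 Mb with at least 20 tested genes. On chromosome 17, 90 of 277 genes between 0 and 20 Mb were lower (32.5%, median fold change -0.85), against 6.0% between 20 and 40 Mb. On chromosome 8 the lower share was 34.5% and 41.8% in the first and second windows, the second of which holds TNFRSF10B and PBK, and then 2.0% between 40 and 60 Mb, where 36.0% of genes were higher. Chromosome 5 had 38.5% lower between 140 and 160 Mb and 24.8% higher between 160 and 180 Mb. On chromosome 9 the share was 33.0% and 41.4% in the windows from 80 to 120 Mb, on chromosome 7 27.2% between 100 and 120 Mb, and on chromosome 12 65 of 217 genes were lower between 40 and 60 Mb, where CDK4 lies. DNA copy number was not measured in these libraries.

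The last comparison asked whether KG-1a answered the drugs unlike the other lines, as the mean of both drugs over DMSO in KG-1a minus the same in the others. edgeR called 1 of 15424 genes (0.00648%), with 765 at an unadjusted p under 0.05. By chance alone a share of about 0.05 of the 15424 genes would pass that unadjusted threshold, so the 765 are not read as differences. That gene was AXL, a receptor kinase linked to drug resistance (chromosome 19, 41219203 to 41261766, plus strand). AXL had 15.8 CPM in KG-1a with DMSO, 1.11 with pioglitazone and 1.47 with darglitazone, against 12.6, 19.6 and 26.8 CPM over the other 9 libraries. With the drugs its log2 level differed from DMSO by -3.63 in KG-1a and by 0.28 in the other lines, a difference of -3.91 (SE 0.47, adjusted p = 0.0413). It rests on a single KG-1a DMSO library; leaving out 1 library at a time, where a fit could be made, gave -4.23 to -3.52 with adjusted p of up to 0.151. ADD2, a cytoskeletal adducin, did not pass the threshold, with a difference of -2.42 (SE 0.37, adjusted p = 0.14), with 7.58, 0.201 and 10.7 CPM in KG-1a; without its pioglitazone library the difference was 0.47. The positive differences with the smallest p were those of FAM72D, NPIPB3 and TEN1-CDK3, which share sequence with near copies or neighbours; FAM72D and TEN1-CDK3 had 0 CPM in the KG-1a DMSO library. None of them passed the threshold.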

How the data were processed

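The authors deposited estimated counts per transcript for the 12 libraries, without normalization. The build GRCh38 and the tools STAR, featureCounts, fastp, DESeq2 and FastQC are named, per the submitters' processing notes; versions and the source of the fractional counts are not given in the sources used here. Of 203027 transcripts, 99.958% matched GENCODE 29; counts were summed over 57865 genes and rounded. The low-count filter of edgeR 4.0.16, filterByExpr, grouped by line (at least 10 counts, total 15), left 15424 genes, and libraries were scaled by TMM. Line and treatment were terms of a robust quasi-likelihood model with 6 residual degrees of freedom, and KG-1a by drug was added for the drug response, with 4. Tests used R 4.3.3 and were tested on simulated data; DESeq2 1.42.0, limma 3.58.1 (voom) and other settings are alternatives. P-values were adjusted over all genes. Floors cover counting error only.

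The members, markers and the 26 gene lists were chosen with earlier results of these data known, so list counts are descriptions and no set was tested. The shares over all genes, 10.6% higher and 11% lower, are the background to every list count. Named genes are the 15 per direction furthest from the nearest line (at least 5 CPM), up to 4 called members of each list, the label markers, 8 preset genes and 3 per direction for the drug response. Y-linked genes were left out. Some further genes and a list are not reported here. These genes were added for their role after their values were seen: CIITA, HLA-DRA, HLA-DRB1, CD74, RFX5, RFXANK, B2M, HLA-B, GATA2, KIT, PROCR, DNMT3B, CDK6, AKR1C3, PRF1, GZMA, TRBC2, TRAC, CD3G, NCAM1, PAX5, ITGA2B, ITGA4, MPO, ELANE, ITGAM, CD14, CEBPA, RUNX1, MEIS1, ISG15, IRF9, MX1, STAT2, HERC5, MDM2, ZMAT3, MKI67, BCL2, IL2RG, CSF2RB, IL1RAP, CXCR4, ABCG2, AHR, AHRR and CYP1A1.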

Additional observations from a re-analysis of the deposited data

Results flagged for a closer look

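AXL was flagged because its response to the drugs differed between KG-1a and the other lines by the test of the difference itself, -3.91 on the log2 scale. Its level with either drug was close in KG-1a, 1.11 CPM with pioglitazone and 1.47 CPM with darglitazone, against 15.8 CPM in the 1 DMSO library. Its call was lost by limma-voom (adjusted p 0.914) and with thinned counts (0.231).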

How the results depend on the processing

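Of 3323 genes set apart, 3222 were called in the same direction by DESeq2, 3240 by limma-voom, 3250 with median-of-ratios size factors, 2940 without the low-count filter, 2654 without both libraries rich in the rRNA-derived entry and 2394 to 3185 without 1 library. Thinning kept 1957 of them, with 2692 tested. Counts of genes set apart ran from 1173 to 1651 (higher) and 1285 to 1838 (lower) without 1 library, and those against the mean of the other lines from 3398 to 4379 and 3227 to 4485. Thinning every library to the depth of the shallowest gave 1074 higher and 969 lower, and 2744 and 2546 against the mean. At 2-fold or more, 1120 were lower. The 2-group model gave 1941 and 2137. The count of drug response differences was 65 without the low-count filter, 8 by DESeq2, 0 by limma-voom and 0 with thinned counts, and 0 to 10 without 1 library; no fit was possible without KG-1a DMSO, and without a KG-1a drug library only the other drug is measured. CD38 reversed to -0.95 in the 2-group model and ranged from -0.23 to 0.48 without 1 library, and the drug response of ADD2 from -5.25 to 0.47. DESeq2 did not call CYTL1, ENPP4, FEV, GLYATL2, SLC16A14, SLC8A3, RFLNA, HBD, HDC, CD7 or CYP26A1, at or near 0 counts in the other lines, nor CD9 or ITGB3, at 0 in KG-1a; the cause was not tested. With thinned counts the calls of ME1, CD1D, AKR1C2 and BCL2L1 were also lost (adjusted p 0.508, 0.219, 0.221 and 0.123). No paired analysis was possible because the replicate number is the treatment, already in the model. Depth limits low genes most in the OCI-AML3 pioglitazone library, where 3 counts are 2.739 CPM.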
